A study of Macaca mulatta with 12 samples.

Results

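A set of 49 genes of the glutathione and antioxidant systems was described in the corpus luteum of the rhesus macaque around the end of the luteal phase. The genes were chosen by symbol. They comprised 15 glutathione S-transferases (GST and MGST symbols), 5 glutathione peroxidases (GPX), 4 peroxiredoxins (PRDX), 4 glutaredoxins (GLRX), 3 metallothioneins (MT1E, MT1X and MT2A) and 8 genes with TXNDC or TXNL symbols. The remaining members were SOD1, SOD2, CAT, GCLC, GCLM, NFE2L2, KEAP1, HMOX2, NQO2 and TXNIP. They were 49 of 14132 genes for which the platform annotation gave probe sets with a single symbol, and each was represented by its brightest probe set, the one with the highest mean over 12 arrays, out of 95 for the 49 genes. The symbols take in more than antioxidant enzymes: TXNL4A and TXNL4B encode spliceosome proteins with a thioredoxin-like fold, and metallothioneins are metal-binding proteins. SOD3, GPX1, GPX3, GSR, GSS, HMOX1, NQO1, TXN, TXN2, TXNRD1, PRDX1 and PRDX5 had no probe set under their symbol alone and are not analysed here.

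Glutathione is a small thiol made from glutamate, cysteine and glycine, and its synthesis is limited by glutamate-cysteine ligase. Transferases couple it to reactive molecules, while glutathione peroxidases and peroxiredoxins reduce peroxides and superoxide dismutases turn superoxide into hydrogen peroxide. The transcription factor NFE2L2 switches on many of these genes and is held in check by KEAP1. Steroid-making cells leak electrons from their mitochondrial and microsomal cytochromes, and luteal tissue is known for high antioxidant enzyme activity.

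RNA of whole corpora lutea, the progesterone-secreting glands that form from ovulated follicles, was hybridised to Affymetrix rhesus arrays with a single label, 1 gland per array. All glands came from females with normal menstrual cycles and were flash frozen at surgery; no treatment is named, and the labels give no ages. There were 4 late regressed glands (days 14 to 16 after the LH surge, serum progesterone below 0.5 ng/ml), 4 late functional glands (also days 14 to 16, but with over 1.5 ng/ml of serum progesterone) and 4 mid-late glands (days 10 to 12), which the labels call the baseline. The labels describe mid-late glands as still producing progesterone, with no serum limit, so late regressed and mid-late glands differ by label in both day and progesterone state. Values are RMA log2 array values, given as mean ± SD over n = 4 arrays per group. Each difference is between 2 group means on the log2 scale, with an SE from limma, and a gene was called at a limma adjusted p below 0.05 over all 52707 probe sets tested.

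Array medians lay between 4.308 and 4.432. The first principal component of all probe sets held 40.8% of the variance. Its scores were 93.16 and 81.58 for late regressed arrays 2 and 3, while the other 10 arrays lay between -42.98 and 12.62. Late regressed array 2 also had a 3′ minus 5′ difference of the actin and GAPDH control probe sets of 2.554, against at most 0.733 on the other arrays, and array 3 had the lowest one, 0.48. Calls among the 49 genes that involve late regressed glands are given with and without these 2 arrays below. The luteal marker STAR averaged 11.32 ± 1.77 in late regressed, 13.50 ± 0.24 in late functional and 13.52 ± 0.12 in mid-late glands (late regressed minus mid-late, limma adjusted p = 0.0508). In whole glands, fewer cells of a type and less RNA per cell cannot be told apart. Of the 49 genes, 3 (GPX6, GSTO2 and PRDX6) had a mean at or below 4.64, the 95th percentile of a set of 674 mostly dim probe sets with the identifier prefix NC, and no fold is drawn from them.

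Late regressed against mid-late glands gave 7 called genes of 49 (14.3%), 4 higher and 3 lower. Among all 14132 genes, 13.1% were called, 7.60% higher and 5.51% lower, so the share in this set lay near that of all genes. Those that rose were SOD2, TXNDC16, MT1E and NFE2L2, and those that fell were GSTA3, MGST1 and GSTA1. The other 42 did not pass, although 18 had an unadjusted p below 0.05 (36.7%, against 35.8% of all genes). The 4 late regressed and 4 mid-late arrays did not overlap for 10 genes (20.4%, against 20.7% of all genes). The median difference of the 49 genes was -0.11, beside -0.02 for all genes. Renewed quantile normalization called 7 genes, 3 of them higher and 4 lower, with TXNDC12 (-0.38) in place of NFE2L2. A fit of these 2 groups alone called 2 genes, GSTA1 and TXNDC16. With the mean of the NC probe sets as a covariate none was called by limma; that mean was 3.484 to 3.584 on late regressed, 3.526 to 3.612 on late functional and 3.646 to 3.754 on mid-late arrays, so it cannot be told apart from the step between mid-late and late glands.

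The count depended on single glands. It was 11 without late regressed array 1, 4 without late regressed array 2, 3 without late regressed array 3, 3 without mid-late array 1, 1 without mid-late array 2 (GSTA1) and 4 without mid-late array 3 or 4. Without late regressed arrays 2 and 3 together, 2 genes were called, GSTA3 (-0.93, limma adjusted p = 0.0431) and MT2A (-1.94, limma adjusted p = 0.0304). The share of all genes called is given for no alternative fit, above or below. Such counts therefore cannot be read as particular to this set. The members spread most in late regressed glands, with a median SD of 0.38, against 0.19 in late functional and 0.15 in mid-late glands. Over all genes these medians were 0.21, 0.13 and 0.14. Members and all genes were not matched for signal level, so this is not a like comparison. The widest spread of any member was that of GSTT1 in late regressed glands, with an SD of 1.58.

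**Figure D1:**
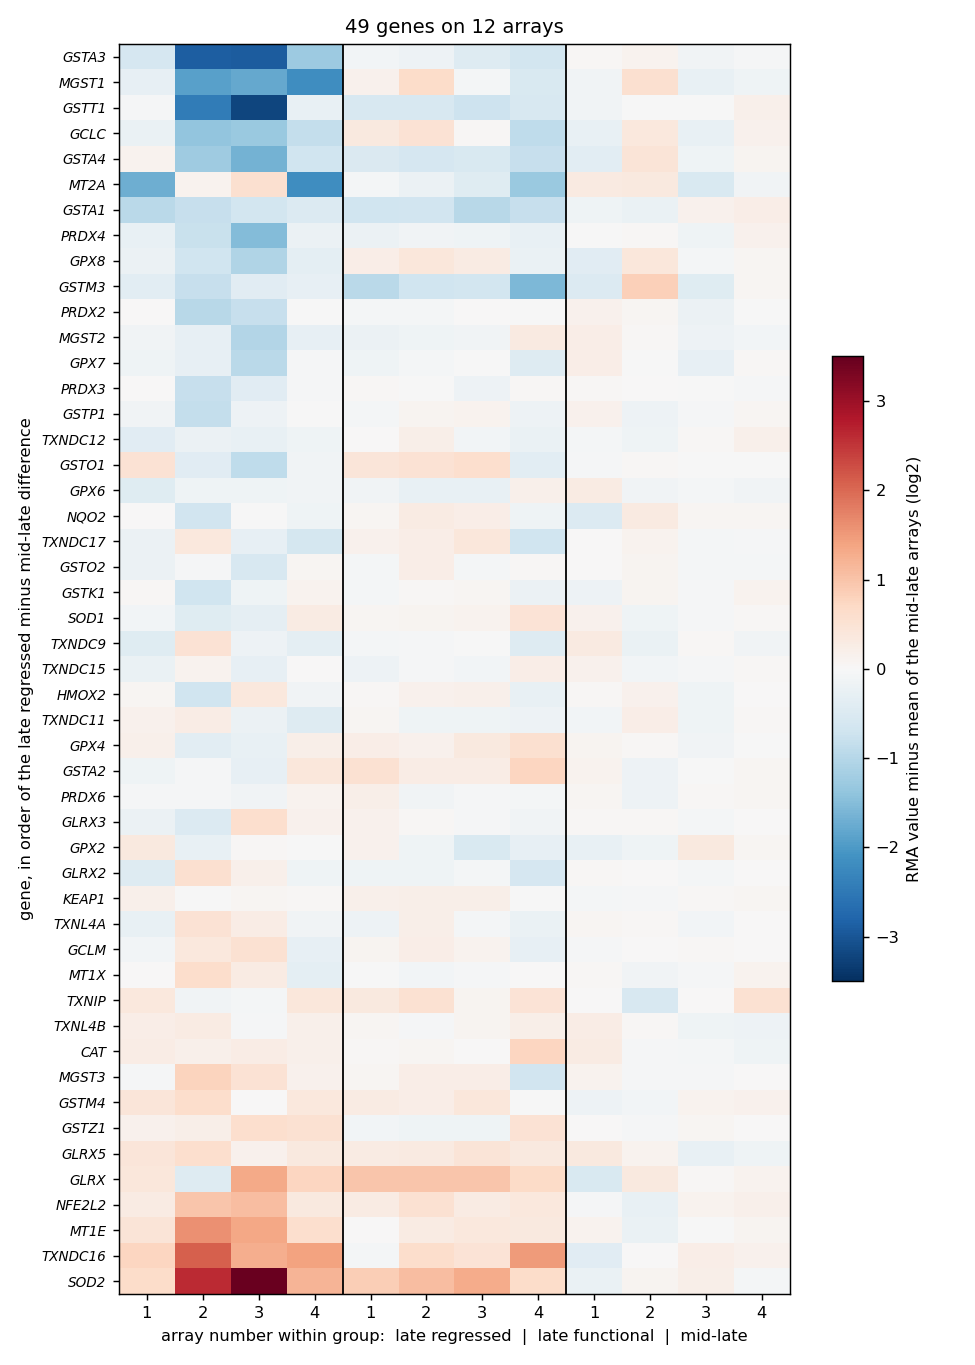
Rows are the 49 genes, ordered by the late regressed minus mid-late difference, and columns are the 12 arrays by group and array number; colour is the RMA log2 value minus the mean of the 4 mid-late arrays. Late regressed arrays 2 and 3 hold the strongest colours for GSTA3 and GSTT1 at the top and SOD2 and MT1E at the bottom, MGST1 is lowest on late regressed array 4, and MT2A is low on late regressed arrays 1 and 4 instead.

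**Figure D2:**
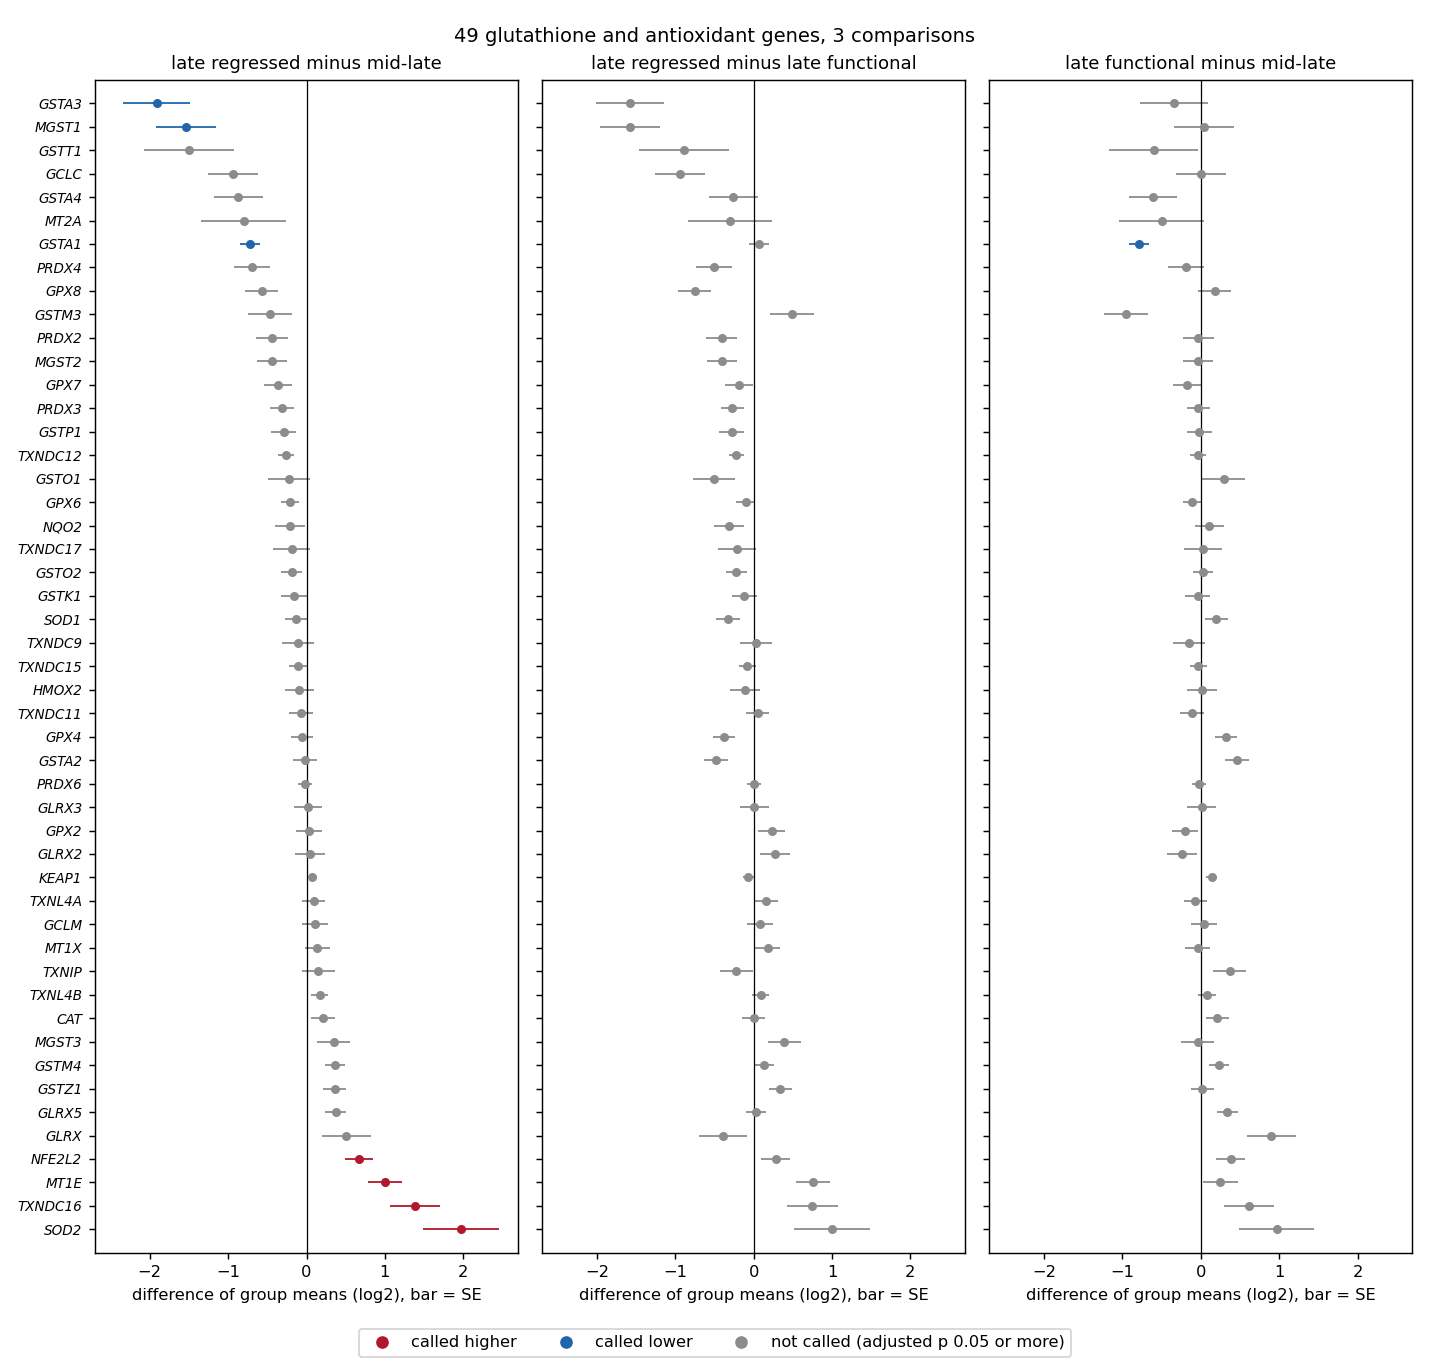
Each point is the difference between 2 group means of 1 gene on the log2 scale, with limma's SE as bar, in 3 panels for late regressed minus mid-late, late regressed minus late functional and late functional minus mid-late. In the first panel 4 genes are called higher and 3 lower, in the second none is called, and in the third GSTA1 alone is called lower.

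Of the 15 glutathione S-transferases, 3 fell in late regressed against mid-late glands, none rose and 12 did not pass, with a median difference of -0.29 (-0.37 over the 14 without the dim GSTO2). Thus 20.0% were called, against 13.1% of all genes (5.51% in the lower direction). GSTA3 encodes an alpha-class transferase that in humans also isomerises ketosteroid precursors of progesterone and androgens. Its values were 11.82, 9.52, 9.51 and 11.14 on late regressed arrays 1 to 4, against 12.46, 12.53, 12.28 and 12.36 in mid-late glands. Every late regressed gland lay below every mid-late gland, and arrays 2 and 3 lay lowest. GSTA3 was 3.76-fold lower in late regressed glands (log2 difference -1.91, SE 0.43, limma adjusted p = 0.0227). Without late regressed arrays 2 and 3 the difference was -0.93 and the call was kept (limma adjusted p = 0.0431). Single arrays whose omission ended the call were late regressed array 3 (0.055) and mid-late arrays 1 (0.0565) and 2 (0.0597). The other GSTA3 probe set gave -1.94 and was called as well.

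MGST1 encodes a membrane-bound transferase that also reduces lipid peroxides. It measured 10.18, 8.57, 8.68 and 8.28 in late regressed glands, against 10.33, 11.02, 10.20 and 10.31 in mid-late glands. The groups did not overlap, but late regressed array 1 lay only just below the lowest mid-late gland. Late regressed glands were 2.90-fold lower (log2 difference -1.54, SE 0.38, limma adjusted p = 0.0301), and the other MGST1 probe set gave -1.44 and was called. On that other probe set the groups overlapped, with late regressed array 1 at 9.55 and mid-late glands at 9.51 to 10.37. The call was lost without late regressed array 2 (0.0603), array 3 (0.0749) or array 4 (0.0514) and without any one mid-late array (0.0523 to 0.0825). Without late regressed arrays 2 and 3 the difference was -1.23 (limma adjusted p = 0.172).

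GSTA1, a further alpha-class transferase, had 5.37, 5.51, 5.69 and 5.83 in late regressed glands, against 6.16, 6.10, 6.46 and 6.56 in mid-late glands. All late regressed glands lay below all mid-late glands, with little spread within either group. The difference was -0.72 (SE 0.13, limma adjusted p = 0.0107), a 1.64-fold decrease, and the call was kept whichever single array was left out. Leaving out late regressed arrays 2 and 3 gave -0.72 again, and the limma adjusted p was 0.0525. The other GSTA1 probe set gave -0.65 and was not called (limma adjusted p = 0.0551). Both GSTA1 probe sets are of the types that can cross-hybridise. The brightest GSTA3 probe set is of such a type too, and the other GSTA3 one is not. Alpha-class transferases have closely similar sequences, so signal shared between GSTA genes was not separated here. GSTA2 differed by -0.02 (SE 0.15) and GSTA4 by -0.87 (SE 0.31, limma adjusted p = 0.0915).

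GSTT1, a theta-class transferase, missed the threshold with a wide spread (log2 difference -1.50, SE 0.57, limma adjusted p = 0.108). Its late regressed values were 9.16, 6.75, 5.98 and 8.93, against 9.08, 9.18, 9.18 and 9.37 in mid-late glands. Late regressed array 1 lay within the mid-late range, and arrays 2 and 3 lay far below it. Without late regressed array 1 GSTT1 was called (-1.98, limma adjusted p = 0.0274), and so was GSTA4 (-1.20, limma adjusted p = 0.00871). The other transferases that did not pass had differences between -0.47 (GSTM3) and 0.36 (GSTM4 and GSTZ1). Among them were GSTP1 (-0.29, SE 0.16), GSTO1 (-0.22, SE 0.27), GSTK1 (-0.16, SE 0.16), MGST2 (-0.44, SE 0.19) and MGST3 (0.35, SE 0.21).

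Beside these decreases, luteal steroidogenic markers averaged lower on the same arrays. The 11 measured of 15 such genes averaged -0.52, -1.84, -1.85 and -0.80 on late regressed arrays 1 to 4, relative to their mean in mid-late glands, against -0.11 to 0.06 on the mid-late arrays. Of these 11 genes 4 fell and none rose (36.4% called, against 13.1% of all genes). Differences were negative for 10 genes and positive for 1 (0.61, not called). All 11 had an unadjusted limma p below 0.05, against 35.8% of all genes. HSD3B2, which makes progesterone from pregnenolone, differed by -3.11, and by -3.05 without late regressed arrays 2 and 3 (limma adjusted p = 0.0243). CYP19A1, the aromatase, differed by -3.09, and by -1.82 without them (0.0406), and GATA6 by -0.55 and -0.40 (0.0492). FDXR differed by -1.66, and its call ended without those 2 arrays (-0.80, limma adjusted p = 0.191) and in 8 of 12 fits without 1 array: late regressed array 2 or 3, late functional array 1 or 3, or any one mid-late array (0.0501 to 0.0908). The part of these cells in the transferase values was not tested.

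**Figure D3:**
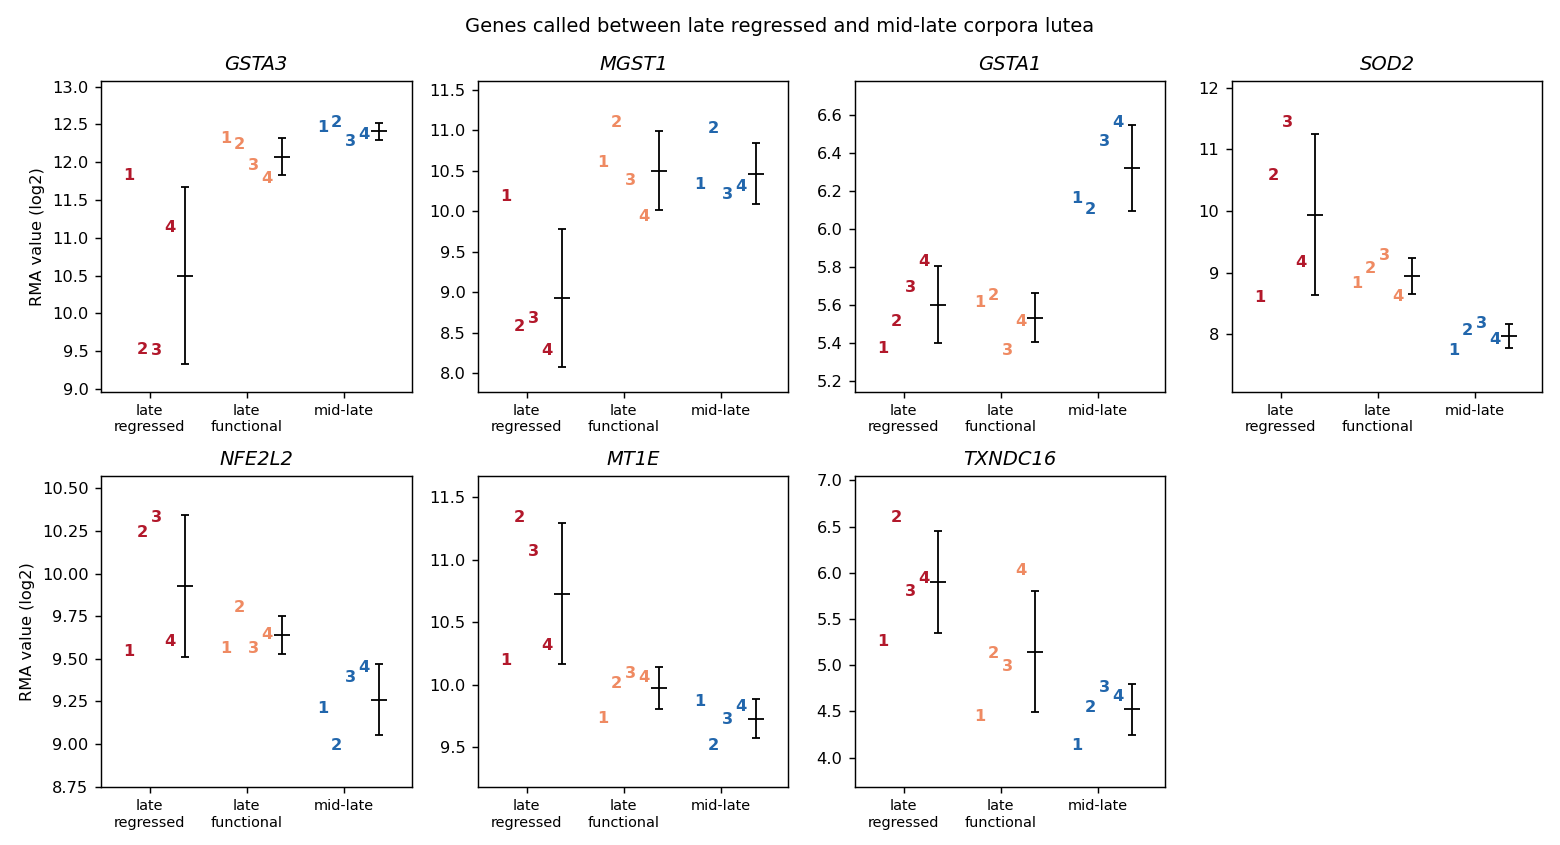
Each panel shows 1 called gene, with the RMA log2 value of each array printed as its array number, by group from late regressed to mid-late, and the mean with its SD (n = 4) as a black bar at the right of each group. GSTA1 separates mid-late glands from both late groups, whereas GSTA3 and MGST1 are low mainly on late regressed arrays 2 to 4, and SOD2 is highest on late regressed arrays 2 and 3.

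In glutathione synthesis, GCLC, the catalytic subunit of glutamate-cysteine ligase, missed the threshold. It had 11.18, 10.04, 10.11 and 10.59 in late regressed glands, against 11.16, 11.80, 11.15 and 11.57 in mid-late glands. Late regressed array 1 lay just inside the mid-late range, and the other 3 lay below it. The log2 difference was -0.94 (SE 0.32, limma adjusted p = 0.0768), and it was called without late regressed array 1 (-1.18, limma adjusted p = 0.0273). All 5 GCLC probe sets gave a negative difference, from -1.47 to -0.39. The mean over them was called (-0.85, limma adjusted p = 0.0428). GCLM, the modifier subunit, differed by 0.11 (SE 0.17, limma adjusted p = 0.688), with 8.17 ± 0.38 in late regressed and 8.05 ± 0.03 in mid-late glands. Whether the 2 subunits differed from each other was not tested.

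None of the 5 glutathione peroxidases was called (limma adjusted p 0.104 to 0.936), and 1 had an unadjusted p below 0.05 (35.8% of all genes did). That gene, GPX8, which encodes a peroxidase of the endoplasmic reticulum, had 9.58, 9.09, 8.73 and 9.43 in late regressed glands, against 9.37, 10.19, 9.70 and 9.85 in mid-late glands (-0.57, SE 0.21). The 2 groups overlapped. GPX4, the selenoenzyme that reduces lipid hydroperoxides in membranes, averaged 11.73 ± 0.30 in late regressed and 11.79 ± 0.09 in mid-late glands (-0.06, SE 0.14). GPX7 differed by -0.36 (SE 0.18) and GPX2 by 0.03 (SE 0.17).

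SOD2, the manganese superoxide dismutase of mitochondria, showed the largest difference of the set. Late regressed arrays 1 to 4 had 8.60, 10.57, 11.44 and 9.16, against 7.74, 8.07, 8.17 and 7.91 in mid-late glands. All 4 late regressed glands lay above all mid-late glands, arrays 2 and 3 by the most. SOD2 was 3.92-fold higher (log2 difference 1.97, SE 0.48, limma adjusted p = 0.0293). The call was lost without late regressed array 2 (0.0598) and without any one mid-late array (0.0558 to 0.0736). Leaving out late regressed arrays 2 and 3 gave 0.91 (limma adjusted p = 0.0501). The second SOD2 probe set, with lower signal, gave -0.05 (limma adjusted p = 0.916), and the mean over both was not called. SOD1, the copper and zinc enzyme of the cytosol, averaged 11.13 ± 0.32 in late regressed and 11.27 ± 0.12 in mid-late glands (-0.13, SE 0.15). Catalase (CAT), which breaks down hydrogen peroxide in peroxisomes, averaged 5.42 ± 0.05 in late regressed and 5.21 ± 0.20 in mid-late glands (0.21, SE 0.15). Neither SOD1 nor CAT passed.

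Genes of superoxide and peroxide sources were listed beside the dismutases. Of 12 measured genes of 16, 2 rose (CYBB and CYBA, the membrane subunits of the phagocyte NADPH oxidase), 1 fell (NOX1, a related oxidase, by 0.36 on the log2 scale) and 9 did not pass, with a median of 0.09. The share called was 25.0%, against 13.1% of all genes. CYBB had 7.33, 10.30, 10.87 and 7.27 in late regressed glands, against 5.72, 5.99, 7.19 and 6.64 in mid-late glands. Its 2 highest glands were those with the highest SOD2. The CYBB difference of 2.56 (limma adjusted p = 0.0472) was kept in 2 of 12 fits without 1 array, those without late regressed array 1 or 4, and lost without each other array (0.0571 to 0.115). It was 0.92 without late regressed arrays 2 and 3 (limma adjusted p = 0.155). CYBA (0.68, limma adjusted p = 0.011) was called in all 12 such fits and had a limma adjusted p of 0.0549 without arrays 2 and 3. NOX1 (limma adjusted p = 0.0178) was also called in all 12, with 0.0669 without arrays 2 and 3.

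Macrophage markers varied over the same glands. The 13 measured of 16 macrophage genes averaged 0.61, 0.64, 1.62 and 0.23 on late regressed arrays 1 to 4, relative to their mean in mid-late glands, against -0.68, -0.33, 0.77 and 0.25 on mid-late arrays 1 to 4. The 2 groups overlapped, none of the 13 genes was called, and 6 of the 13 had an unadjusted p below 0.05, against 35.8% of all genes. Differences were positive for 9 genes, up to 1.75 for TYROBP (limma adjusted p = 0.0611), and negative for 4, namely C1QA (-0.68), C1QC (-0.52), ITGAM (-0.13) and C1QB (-0.08). On late regressed array 2, C1QA had 5.73, its lowest value in these 2 groups, while TYROBP had 11.41, its highest. The part of macrophages in the SOD2 and CYBB values was not tested. Of 8 fibroblast genes, 4 rose (DCN, FBLN1, DPT and COL14A1) and the other 4 had negative differences (-0.79 to -0.18, none called). Of 10 endothelial genes, 4 rose (TEK, CLDN5, ERG and SOX17), and 2 had negative differences, down to -0.83 for KDR (neither called). Of 6 smooth muscle and pericyte genes MCAM fell (-0.88), while 3 had positive differences, up to 1.18, none of them called. The fibroblast, endothelial and smooth muscle shares called were 50.0%, 40.0% and 16.7%, against 13.1% of all genes. None of 4 T and NK cell genes had an unadjusted p below 0.05. Of these 9 calls FBLN1 (limma adjusted p = 0.0328) and CLDN5 (0.0243) were kept without late regressed arrays 2 and 3, and the others were not (0.0786 to 0.264). FBLN1, CLDN5 and ERG were called in all 12 fits without 1 array, and the others in 1 (DCN) to 9 (TEK) of them.

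None of the 4 peroxiredoxins was called, and the 3 above the dim-probe limit, PRDX2, PRDX3 and PRDX4, had negative differences (median -0.44). PRDX4, the peroxiredoxin of the endoplasmic reticulum, had 10.52, 9.98, 9.26 and 10.56 in late regressed glands, against 10.76, 10.82, 10.61 and 10.91 in mid-late glands. The groups did not overlap, and late regressed array 3 lay lowest. The difference was -0.70 (SE 0.23, limma adjusted p = 0.0718), and it was called without late regressed array 1 (-0.84, limma adjusted p = 0.0336). PRDX2, a cytosolic form abundant in red cells, had 10.17, 9.19, 9.34 and 10.13, against 10.29, 10.21, 9.95 and 10.14 in mid-late glands (-0.44, SE 0.20, limma adjusted p = 0.162). Arrays 2 and 3 were the low ones again. The 4 measured of 9 erythroid markers had differences from -0.88 to -0.13, none of them called, and 2 of them lay at or below the dim-probe limit. PRDX3, of mitochondria, averaged 11.28 ± 0.38 in late regressed and 11.59 ± 0.04 in mid-late glands (-0.31, SE 0.15, limma adjusted p = 0.201). PRDX6, a cytosolic form, averaged 3.53 in late regressed and 3.54 in mid-late glands, at the level of the dim NC probe sets.

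**Figure D4:**
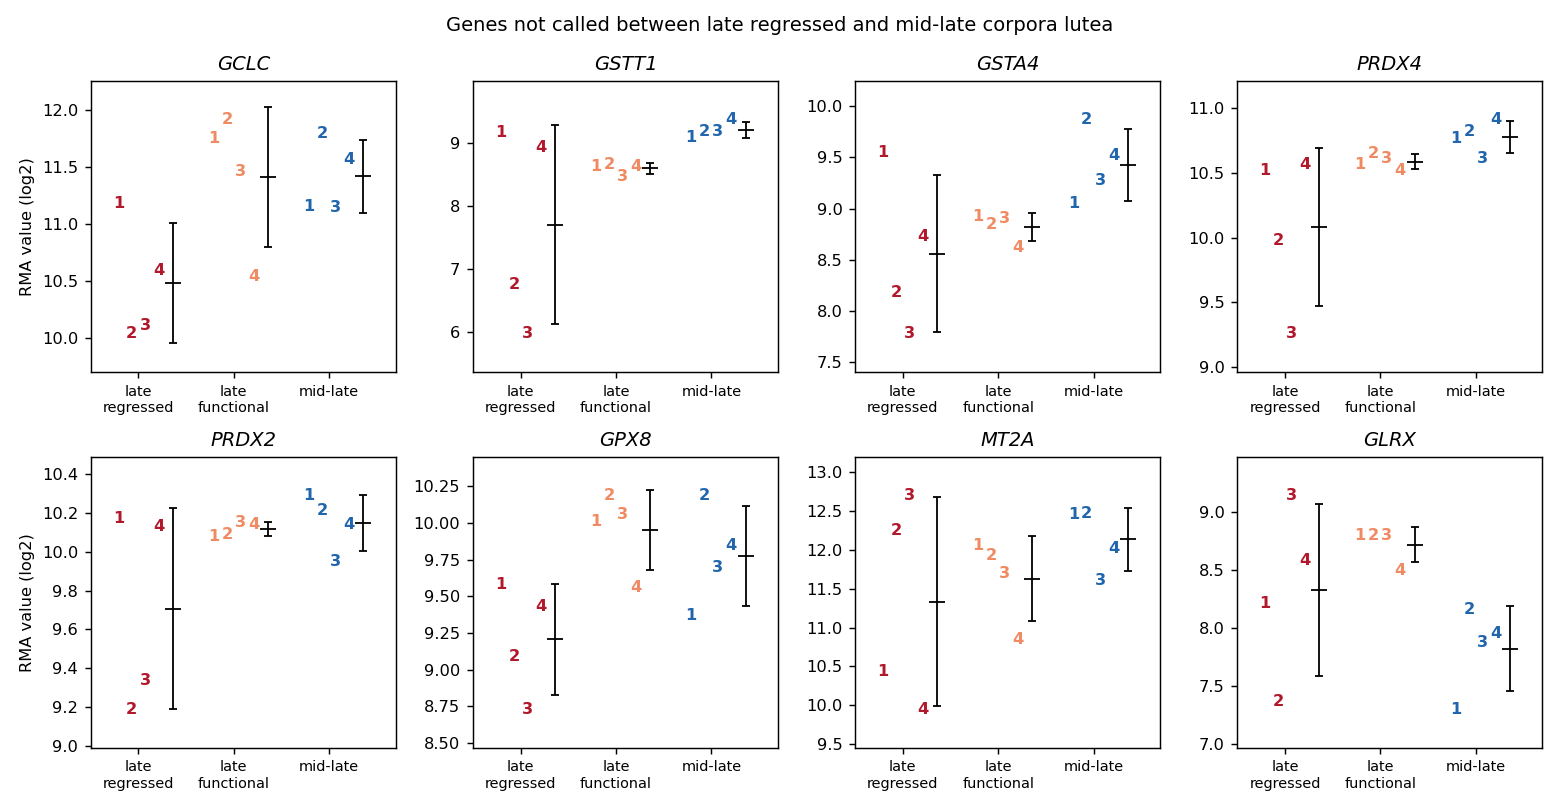
Values of 8 genes that did not pass, drawn with the array numbers as symbols and the mean with SD (n = 4) as black bars, on the RMA log2 scale. GSTT1, GCLC, GSTA4, PRDX2 and PRDX4 are lower on late regressed arrays 2 and 3 than on array 1, MT2A is higher there, and GLRX is higher on all 4 late functional arrays than on any mid-late array.

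Among the 8 TXNDC and TXNL genes, TXNDC16 rose and 7 did not pass (12.5% called, against 13.1% of all genes). TXNDC16, which encodes a thioredoxin-domain protein of the endoplasmic reticulum, had 5.26, 6.60, 5.80 and 5.94 in late regressed glands, against 4.13, 4.54, 4.76 and 4.66 in mid-late glands. Each late regressed gland lay above each mid-late gland. The log2 difference was 1.38 (SE 0.32, limma adjusted p = 0.0261), 2.60-fold. The mid-late mean of 4.52 lies below the dim-probe limit of 4.64, so the size of this fold is uncertain. The call ended when late regressed array 3 (0.0557) or either of mid-late arrays 1 (0.0711) and 2 (0.0622) was left out. With late regressed arrays 2 and 3 both omitted, the difference was 1.08 (limma adjusted p = 0.133). The others differed by -0.26 (TXNDC12) to 0.17 (TXNL4B). TXNIP, which binds and inhibits thioredoxin, differed by 0.15 (SE 0.21, limma adjusted p = 0.662). Its 4 other probe sets gave -0.34 to -0.28, none of them called.

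All 4 glutaredoxins, which reduce glutathionylated proteins or carry iron-sulphur clusters, had a positive difference, and none passed. GLRX5, the mitochondrial iron-sulphur form, differed by 0.37 (SE 0.13, limma adjusted p = 0.0847). GLRX, the cytosolic form, had 8.21, 7.37, 9.14 and 8.58 in late regressed glands, against 7.30, 8.16, 7.87 and 7.95 in mid-late glands (0.51, SE 0.31). Late regressed array 2 alone lay below most mid-late glands. With the 3′ minus 5′ control difference as a covariate, GLRX was called (0.77, limma adjusted p = 0.0398). HMOX2, the constitutive haem oxygenase, differed by -0.09 (SE 0.19) and NQO2, a quinone reductase, by -0.21 (SE 0.19).

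The 3 metallothioneins, which bind zinc and copper, did not show 1 pattern. MT1E had 10.19, 11.34, 11.07 and 10.31 in late regressed glands, against 9.86, 9.51, 9.72 and 9.82 in mid-late glands. Every late regressed gland lay above every mid-late gland, arrays 2 and 3 by more than 1 log2 unit. MT1E was 2.01-fold higher (log2 difference 1.00, SE 0.22, limma adjusted p = 0.0212). The call was lost without late regressed array 3 (0.0576) or mid-late array 2 (0.0606), and without late regressed arrays 2 and 3 the difference was 0.53 (limma adjusted p = 0.0601). Its single probe set is of a type shared between near-identical sequences, so which metallothionein it reports is uncertain.

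MT2A had 10.43, 12.25, 12.70 and 9.95 in late regressed glands, against 12.45, 12.46, 11.60 and 12.02 in mid-late glands. Late regressed arrays 1 and 4 lay below all mid-late glands, and arrays 2 and 3 within or above their range. The difference was -0.80 (SE 0.54, limma adjusted p = 0.348), and without arrays 2 and 3 it was -1.94 and called (limma adjusted p = 0.0304). MT1X differed by 0.14 (SE 0.16), and its 3 other probe sets gave 0.04 to 0.09. Of 5 measured zinc-handling genes of 9, 1 fell, the zinc importer SLC39A8 (-0.64, limma adjusted p = 0.0192), and 4 did not pass (median -0.32). That is 20.0% called, against 13.1% of all genes. The SLC39A8 call was lost without late regressed array 3 (0.0529) or mid-late array 2 (0.0505) and was kept without late regressed arrays 2 and 3 together (-0.72, limma adjusted p = 0.0424).

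NFE2L2, the transcription factor that activates many antioxidant genes, had 9.54, 10.24, 10.33 and 9.60 in late regressed glands, against 9.21, 8.99, 9.39 and 9.45 in mid-late glands. The groups did not overlap, with arrays 1 and 4 close to the highest mid-late gland. The difference was 0.67 (SE 0.18, limma adjusted p = 0.0385), 1.59-fold. The call was kept in 3 of 12 fits without 1 array. It was lost without late regressed array 2 (0.0784) or 3 (0.0929), late functional array 1 (0.0546), 2 (0.0517) or 3 (0.0552), and any one mid-late array (0.0506 to 0.101). Of 12 other alternative settings, 4 kept the NFE2L2 call. Those that lost it include array weights and the 3′ minus 5′ control difference as a covariate. Omission of late regressed arrays 2 and 3 gave 0.31 (limma adjusted p = 0.211). Of its 4 other probe sets, 1 was called (0.61), and the others gave -0.29, 0.18 and 0.44. The mean over its probe sets was not called. KEAP1, which binds NFE2L2 and directs its degradation, averaged 7.54 ± 0.08 in late regressed and 7.47 ± 0.07 in mid-late glands (0.07, SE 0.07, limma adjusted p = 0.579).

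Of 20 measured genes of 24 in a list of NFE2L2 partners and other targets, 2 rose, 1 fell and 17 did not pass (median 0.22). Thus 15.0% were called, against 13.1% of all genes. SQSTM1, the autophagy receptor that binds KEAP1, had 11.27, 11.81, 12.07 and 11.69 in late regressed glands, against 10.85, 10.67, 10.70 and 10.57 in mid-late glands. The groups were well apart (1.01, limma adjusted p = 0.00656), the call was kept in all 12 fits without 1 array, and without late regressed arrays 2 and 3 the difference was 0.78 (limma adjusted p = 0.0252). FTL, the ferritin light chain, rose by 0.75 (limma adjusted p = 0.0231). That call was lost without mid-late array 1 (0.0604) or 2 (0.062) and without late regressed arrays 2 and 3 (0.0911). OSGIN1, an oxidative stress response gene, fell by 1.16 on the log2 scale (limma adjusted p = 0.0254). Its call ended without late regressed array 2 (0.052), without either of mid-late arrays 1 (0.0636) and 2 (0.0713), and without late regressed arrays 2 and 3 together (0.108).

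Lists of supply pathways gave few calls. None of 9 measured NADPH-supplying genes of 14 and none of 12 measured genes of cysteine supply and glutathione turnover of 20 was called by limma. In each of these lists 2 genes had an unadjusted p below 0.05 (35.8% of all genes did), and the medians were 0.05 and 0.11. Of 22 measured other antioxidant and repair genes of 24, 2 rose, the sestrin gene SESN1 (0.81, limma adjusted p = 0.016) and OXR1 (0.65, limma adjusted p = 0.0113), none fell and 20 did not pass (median -0.08). The share called was 9.09%, against 13.1% of all genes. Both calls were kept in all 12 fits without 1 array. Without late regressed arrays 2 and 3 the limma adjusted p was 0.0954 for SESN1 and 0.053 for OXR1.

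Late regressed against late functional glands sets glands from equal days of the cycle side by side, with low serum progesterone in the first group and higher in the second. None of the 49 genes was called by limma, and among all genes 0.00708% were. An unadjusted p below 0.05 was found for 11 members (22.4%, against 16.1% of all genes), 8 with a negative and 3 with a positive difference. The largest differences were those of GSTA3 (-1.58, SE 0.43, limma adjusted p = 0.23) and MGST1 (-1.58, SE 0.38, limma adjusted p = 0.187). GSTA3 had 11.82, 9.52, 9.51 and 11.14 in late regressed glands, against 12.31, 12.24, 11.96 and 11.78 in late functional glands. MGST1 had 10.18, 8.57, 8.68 and 8.28 in late regressed glands, against 10.60, 11.10, 10.38 and 9.93 in late functional glands. In both genes late regressed array 1 lay inside the late functional range and the other 3 below it.

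By brightest probe set, MT1E was the only member whose late regressed and late functional arrays did not overlap (2.04% of members, against 5.91% of all genes, 2.63% in the higher direction). Other probe sets of MGST1 (-1.71) and TXNIP (-1.15) did not overlap either. MT1E had 10.19, 11.34, 11.07 and 10.31 in late regressed glands, against 9.73, 10.01, 10.09 and 10.06 in late functional glands (0.76, SE 0.22, limma adjusted p = 0.248). Late regressed array 1 lay close to the highest late functional gland. Without late regressed array 1 the count of called members was 3, namely GSTA3 (-2.02, limma adjusted p = 0.0194), MGST1 (-1.99, limma adjusted p = 0.00846) and MT1E (0.93, limma adjusted p = 0.0494). The share of all genes called in that fit is not given here. Other members with an unadjusted p below 0.05 were GCLC (-0.94), GPX8 (-0.75), PRDX4 (-0.51), GSTA2 (-0.48), GPX4 (-0.38), SOD1 (-0.33), GSTZ1 (0.34) and TXNDC16 (0.75). The GCLC probe sets did not agree here, and the 4 others gave -1.35, -0.20, -0.03 and -0.03. SOD2 differed by 1.00 (SE 0.48, limma adjusted p = 0.453), with 9.94 ± 1.30 in late regressed and 8.95 ± 0.29 in late functional glands. Its second probe set gave 0.15.

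Late functional against mid-late glands sets later days against earlier ones, with both groups described by the labels as functional. GSTA1 was the single member called (2.04%, against 1.17% of all genes, 0.594% in the lower direction), and 6 members had an unadjusted p below 0.05 (12.2%, against 20.1% of all genes). It had 5.61, 5.65, 5.36 and 5.51 in late functional glands, against 6.16, 6.10, 6.46 and 6.56 in mid-late glands. The groups were clear of each other, and GSTA1 was 1.73-fold lower in late functional glands (log2 difference -0.79, SE 0.13, limma adjusted p = 0.0327). The other GSTA1 probe set gave -0.66 and was not called (limma adjusted p = 0.114). Between the late groups the brightest one differed by 0.07 (SE 0.13). The call was lost without any one of the 8 late functional or mid-late arrays (0.051 to 0.108), so that 0 members were then called. It was kept without any one late regressed array. The luteal marker HSD3B2 was also lower in late functional glands (-1.69, limma adjusted p = 0.0435), a call kept in 2 of 12 fits, those without late regressed array 2 or 3, and lost without each other array (0.0515 to 0.122). No other gene of the luteal list was called, the list averaged -0.45 to -0.04 on the late functional arrays, and its part in the GSTA1 values was not tested.

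The late functional and mid-late arrays did not overlap for 10 members (20.4%, against 18.9% of all genes). SOD2 had 8.83, 9.06, 9.28 and 8.61 in late functional glands, against 7.74, 8.07, 8.17 and 7.91 in mid-late glands (0.97, SE 0.48, limma adjusted p = 0.303). GLRX had 8.79, 8.79, 8.79 and 8.49 in late functional glands, against 7.30, 8.16, 7.87 and 7.95 in mid-late glands (0.90, SE 0.31, limma adjusted p = 0.152). Both were higher in all late functional glands than in any mid-late gland and missed the threshold in the fit of all arrays. For SOD2 this holds for the brightest probe set alone. Its second one gave -0.20 (limma adjusted p = 0.714), with overlapping groups. In a fit of these 2 groups alone, 4 members were called: SOD2 (limma adjusted p = 0.013), GLRX (0.0222), GSTT1 (-0.60, 0.0108) and GSTA1 (0.0128). The same 4 were called in the fit of all groups without late regressed arrays 2 and 3. Macrophage markers averaged 0.90 to 0.98 above their mid-late mean on the late functional arrays, with 0 of 13 called, and their part in these values was not tested. GSTM3, a mu-class transferase, showed the largest negative difference (-0.96, SE 0.28, limma adjusted p = 0.113), with 9.40 ± 0.43 in late functional and 10.36 ± 0.61 in mid-late glands.

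Among partners of NFE2L2 in late functional glands, SQSTM1 (0.67, limma adjusted p = 0.0495) and NFE2L1, a relative of NFE2L2 (0.57, limma adjusted p = 0.0431), rose, and 18 of 20 genes did not pass. The share called was 10.0%, against 1.17% of all genes. Each call was kept in 3 of 12 fits without 1 array. SQSTM1 was lost without late regressed array 4 (0.061) and without any one late functional (0.0915 to 0.133) or mid-late array (0.0888 to 0.115). NFE2L1 was lost without late regressed array 4 (0.0515) and without any one late functional (0.0656 to 0.133) or mid-late array (0.0622 to 0.108). NOX1 fell by 0.48 on the log2 scale (limma adjusted p = 0.0298), a call kept without mid-late array 4 and lost without each other mid-late array (0.0507 to 0.071) or any one late functional array (0.0566 to 0.104). NFE2L2 itself differed by 0.38 (SE 0.18, limma adjusted p = 0.274).

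Over all 3 groups, limma's moderated F test called 4 of the 49 genes (8.16%, against 6.65% of all genes). They were GSTA1 (adjusted p = 0.017), MGST1 (0.0449), GSTA3 (0.0453) and MT1E (0.0461). The comparisons share groups of arrays and are not independent. For GSTA1 both late groups lay at one level below mid-late glands, for GSTA3 and MGST1 the late functional means lay near the mid-late ones, and MT1E averaged 10.73 ± 0.56 in late regressed, 9.97 ± 0.16 in late functional and 9.73 ± 0.16 in mid-late glands.

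Of the 49 genes, 24 had more than 1 probe set. In late regressed against mid-late glands, 4 of their 46 other probe sets were called, 1 each of GSTA3, MGST1, NFE2L2 and GSTZ1. GSTZ1, which also isomerises maleylacetoacetate in tyrosine breakdown, was not called by its brightest probe set (0.36, limma adjusted p = 0.129), and its others gave 0.74 and -0.20. Both MGST3 probe sets beside the brightest, which gave 0.35, lay near 0 (-0.06 and -0.04).

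**Figure D5:**
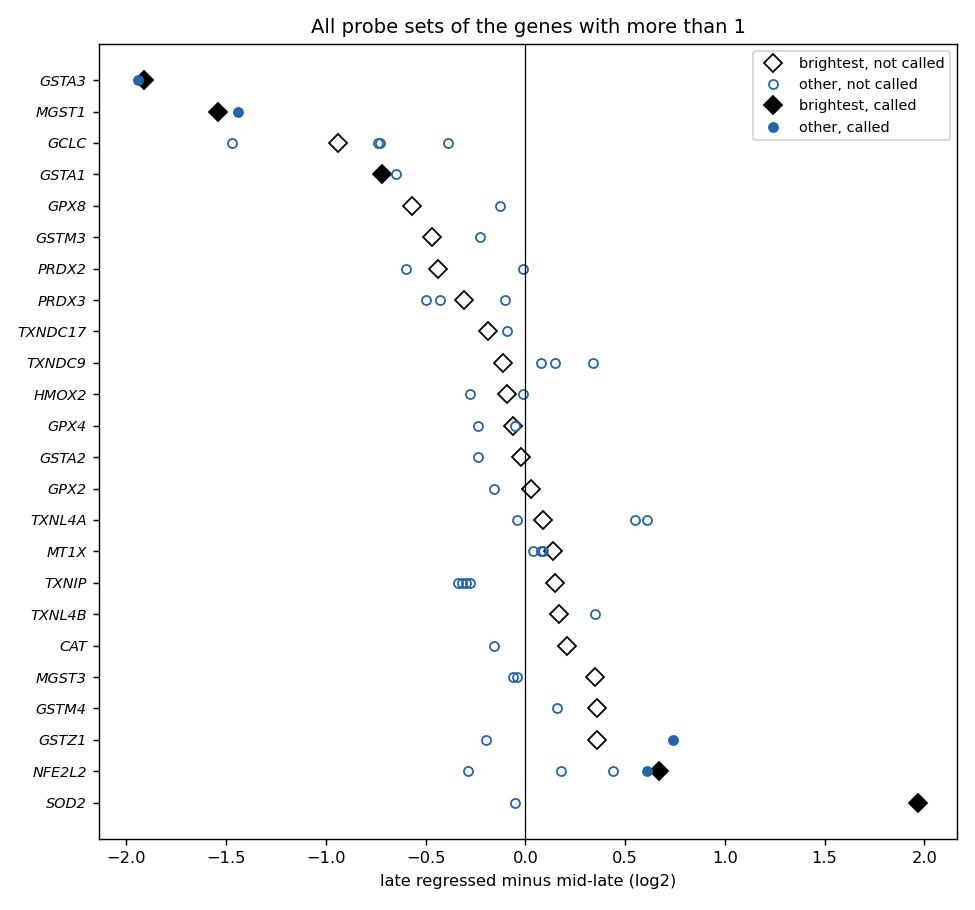
The x axis is the log2 difference, late regressed minus mid-late, of every probe set of the 24 genes with more than 1; diamonds mark the brightest probe set, circles the others, and filled symbols an adjusted p below 0.05. The probe sets of GSTA3, MGST1, GSTA1 and GCLC lie on the lower side together, while those of SOD2, TXNIP, NFE2L2 and some others lie on both sides of 0.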

How the data were processed

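RNA of 12 rhesus corpora lutea was measured on 12 one-colour arrays, 4 in each of 3 groups taken from the sample titles, which name them biological replicates. The deposited table holds log2 values that the authors made with RMA, per the submitters' processing notes; the RMA version was not given in the sources used here. Their range shows the values to be on the log2 scale. No scan dates were at hand, so no batch was tested.

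Of 52865 probe sets, 158 array controls were left out and 52707 tested. The annotation gave 24956 of these 1 symbol, 361 several and 27390 none; 1 probe set with several symbols, TXN among them, was not used. For 48 of the 49 genes the Entrez ID was in a RefSeq gene table (assembly T2T-MMU8v2.0) under the same symbol, and GPX6 kept the annotation's name.

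limma 3.58.1 (R 4.3.3; lmFit, eBayes) was fitted to group means over all 12 arrays, with Benjamini-Hochberg adjusted p-values over all tested probe sets. Counting and drawing used Python 3.11.15. The number of arrays limits the precision. Lists were described by counts and medians alone, and some lists include genes at or below the dim-probe limit. The script was tested on simulated data. The members and lists were chosen with earlier results of these data known. Named genes were all called members, a fixed panel of 29 symbols (17 with a probe set), the 3 largest differences per comparison and the 5 brightest members. Other members stand as examples of their family, chosen after their values were seen.

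Same-numbered arrays of different groups were checked for pairing. The correlation of their deviations from group means exceeded 0.1 for 3 of 12 pairs (range -0.122 to 0.296). The numbers were therefore not used as pairs, though such correlations cannot exclude a link between same-numbered glands.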

Additional observations from a re-analysis of the deposited data

Results flagged for a closer look

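In each group of 4 arrays, the highest or lowest value of a named gene was set against the others by Dixon's ratio of gap to range. Of 63 groups tested, 6 exceeded its critical value at the 95% level, where chance flags about 5% of groups. Late functional array 4 accounts for 4 of the 6. It had the highest CAT value, 5.95, against 5.22 to 5.28 on the other late functional arrays, and the highest SOD1 value, 11.76, against 11.35 to 11.39. It had the lowest GLRX value, 8.49, against 8.79 on each of the others, and the lowest KEAP1 value, 7.45, against 7.65 to 7.67. Mid-late array 2 had the highest MGST1 value of its group, 11.02, against 10.20 to 10.33, and the lowest PRDX6 value, 3.36, against 3.58 to 3.62, which is at the level of dim probe sets. The cause was not tested.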

How the results depend on the processing

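Late regressed against mid-late, 7 members were called, and 2 with only the groups compared (GSTA1 and TXNDC16), 4 with array weights, 2 without late regressed arrays 2 and 3, and 0 with the mean of the NC probe sets as a covariate. Leaving out 1 array gave 1 to 11. The share of all genes called is not given for these fits or those that follow. Late regressed against late functional, 0 were called under every alternative tried except leaving out 1 array, which gave 0 to 3. Late functional against mid-late, 1 was called, GSTA1. The count was 4 with only the groups compared, 3 with array weights and 4 without late regressed arrays 2 and 3. It was 0 with the NC mean as a covariate. With cross-hybridising probe set types left out, or with a 2-fold minimum, 0 were called. The first setting removes both GSTA1 probe sets, and the GSTA1 difference of -0.79 lies below 2-fold. Neither setting could keep the GSTA1 call. Leaving out 1 array gave 0 to 1. With the replicate number as a replicate block, 6, 0 and 0 members were called in the 3 comparisons, with NFE2L2 and, in late functional glands, GSTA1 lost. Fits of fewer arrays gave fewer calls in some cases and more in others, and the cause was not tested. Over the 21 named genes, 0 called differences changed sign, 68 single results lost a call and 15 gained one. The losses include called differences smaller than 2-fold, which the 2-fold minimum drops by rule. Dim probe sets limit GPX6, GSTO2, PRDX6 and the fold of TXNDC16.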
